A study of Mus musculus with 12 samples.

Results

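Glis3 encodes a zinc finger transcription factor of pancreatic beta cells, and its messenger RNA was followed here through every islet library of a comparison between 2 mouse strains. The gene was taken as the row of the deposited count table whose Ensembl identifier, ENSMUSG00000052942, maps to the symbol Glis3, which is 1 of 38561 genes in the table. Islets came from NOD/LtJ mice, a strain prone to autoimmune diabetes, and from C57BL/10 mice, called B10 here. Some mice of each strain also carried insHEL, the transgene Tg(ILK3mHEL)3Ccg, in which an insulin promoter drives membrane-bound hen egg lysozyme in beta cells. The 4 groups are B10, B10_insHEL, NOD and NOD_insHEL, with 3 islet libraries each. All donors were 11-week-old normoglycemic males with the k haplotype of the major histocompatibility complex. Each also carried the Rag-/- mutation, so that mature T and B cells are not expected in any group. The labels do not say whether an islet preparation came from 1 mouse or several, and the p-values below measure the spread between these preparations.

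GLIS3 binds DNA through Krüppel-like zinc fingers related to those of the GLI and ZIC proteins. In beta cells it is known to act on the insulin promoters together with PDX1, MAFA and NEUROD1, and during development it acts upstream of Neurog3, the factor that starts endocrine differentiation. Loss of GLIS3 causes neonatal diabetes in mice and people, and common variants near the human gene are associated with type 1 and type 2 diabetes. Reduced Glis3 has been linked to beta cell fragility in NOD mice, which is the question that the strain comparison addresses for this gene.

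Glis3 lies on the minus strand of chromosome 19 from 28258851 to 28680077 (GRCm38, GENCODE vM21), and its annotated exons add up to 8842 bases. Of the genes annotated inside or across this interval, the sense intronic transcript 4933413C19Rik had 41 reads over all 12 libraries and the opposite-strand long noncoding RNA D930032P07Rik had 4. Neither shares an exon base with Glis3. The 250 bases upstream of the Glis3 start (chr19:28680078-28680327, minus strand) are shown with those of Ins1 (chr19:52264047-52264296, plus strand), a rodent insulin gene on the same chromosome and a reported target of GLIS3. They are shown to set the sequence composition of the regulator beside that of its target. Both come from RefSeq (GRCm38.p6), are written 5′ to 3′, and carry their CpG dinucleotides in capitals.
Glis3: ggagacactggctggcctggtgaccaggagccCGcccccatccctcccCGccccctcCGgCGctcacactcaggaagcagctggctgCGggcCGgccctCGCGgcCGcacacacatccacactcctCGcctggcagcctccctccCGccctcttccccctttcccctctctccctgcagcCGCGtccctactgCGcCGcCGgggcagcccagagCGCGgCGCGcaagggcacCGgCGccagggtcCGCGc
Ins1: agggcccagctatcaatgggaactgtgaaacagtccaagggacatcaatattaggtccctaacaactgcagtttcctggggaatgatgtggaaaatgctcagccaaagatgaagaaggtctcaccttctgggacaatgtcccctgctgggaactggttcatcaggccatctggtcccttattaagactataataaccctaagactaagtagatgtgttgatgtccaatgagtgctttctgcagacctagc
The Glis3 window holds 24 CpG dinucleotides and is 75.6% G or C. Among 32851 RefSeq promoter windows of the same length the median is 6 CpG dinucleotides, and 11.98% hold as many as Glis3 or more. The Ins1 window holds 0 and is 46.4% G or C, and 7.87% of windows hold as few. The letters TGGGGGGT, taken as a GLIS motif, were searched on both strands and were in neither window. Bases downstream of the annotated starts were not searched, and whether those starts are the ones used in beta cells was not tested. The same letters were absent from the windows listed for the reported targets Slc2a2, Pdx1 and G6pc2, and 1.36% of all windows hold them.

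Glis3 was detected in every library. Read totals ran from 2212062 in NOD_insHEL replicate 3 to 21138456 in B10 replicate 2, and Glis3 received from 103 reads (exact 95% Poisson interval 84.1 to 125, counting error only) to 1578 reads in these same libraries. The number of islets behind a library ran from 20 in B10 replicate 3 to 137 in NOD replicate 2. Ins1 and Ins2 together took 15.8% to 25.6% of reads. Markers of lymphocytes were at or near background, with Cd3e and Ms4a1 at 0 reads in all 12 libraries, Cd8a at 8 reads in all and Cd4 at 42. Genes of the exocrine acinar cells, the pancreatic cells that make digestive enzymes, were present at up to 0.410% of reads and unevenly. An acinar score, the mean log2 CPM (reads scaled to a common library size) of 11 acinar genes, was 7.81 to 8.14 in B10, 2.05, 7.29 and 1.51 in B10_insHEL replicates 1, 2 and 3, 3.12 to 3.99 in NOD and 1.68 to 2.53 in NOD_insHEL.

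Levels are given as CPM after scaling by the trimmed mean of M values (TMM). Glis3 stood at 64.2, 71.1 and 71.2 CPM in B10, and at 76.0, 90.5 and 67.7 CPM in B10_insHEL. It stood at 61.3, 60.0 and 51.1 CPM in NOD, and at 62.5, 73.3 and 48.4 CPM in NOD_insHEL. Every NOD library lay below every B10 library, whereas NOD_insHEL replicate 2 lay above 1 library of B10_insHEL and above all 3 of B10. The 2 lowest of the 12 values were NOD_insHEL replicate 3 and NOD replicate 3, which were also the 2 shallowest libraries, and the highest was B10_insHEL replicate 2, which had the high acinar score of its group. By group mean the order was B10_insHEL (78.0 ± 11.5, SD, n = 3), B10 (68.8 ± 4.01), NOD_insHEL (61.4 ± 12.5) and NOD (57.5 ± 5.54). Each neighbouring pair in this order overlapped within its SD, and the spread within the transgenic groups was wider (coefficients of variation of 14.8% and 20.4%) than within B10 (5.82%) and NOD (9.63%).

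**Figure D1:**
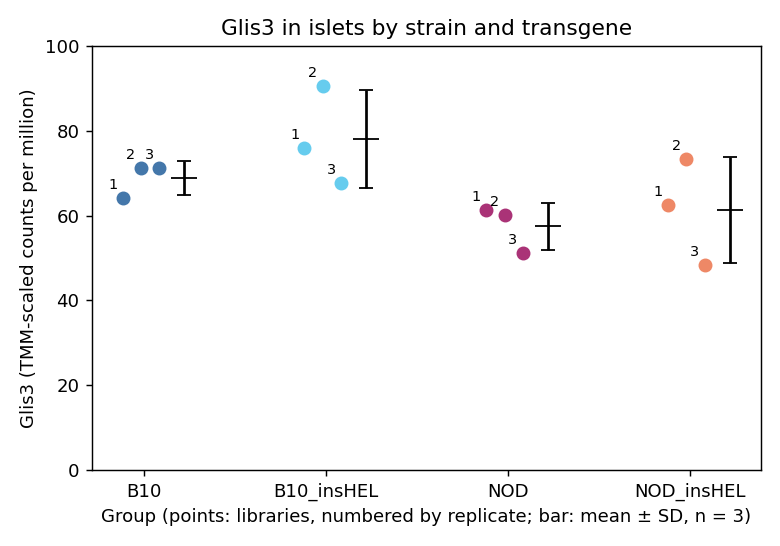
Glis3 level on the y axis, in TMM-scaled CPM, for the 12 islet libraries by group on the x axis; points are libraries numbered by replicate and bars are the mean ± SD (n = 3). The NOD libraries (51.1 to 61.3) sit below the B10 libraries (64.2 to 71.2), and the transgenic groups overlap.

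Among beta cell transcription factors Glis3 was a low-abundance member. Per length, it averaged 7.51 CPM per kb of exon (RPKM) over the 12 libraries, with a range of 5.47 to 10.23. That placed it 19 of 23 among the listed factors that passed the filter on low counts. The regulators of mature beta cell identity stood far above it, with Nkx6-1 at 125 RPKM, Pdx1, the master factor of pancreas and beta cell formation, at 110, and Neurod1, a partner of PDX1 on the insulin promoter, at 87.4. The next factor below it was Hnf4a, a nuclear receptor whose human form causes an inherited diabetes, at 6.10 RPKM (5.04 to 8.29). The range of Hnf4a over the libraries overlapped that of Glis3. Neurog3, whose main time of expression is before birth, was lowest at 1.84 RPKM.

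Averaged over the transgene, Glis3 was lower in NOD than in B10 islets. The mean was 59.4 CPM over the 6 NOD-strain libraries and 73.4 CPM over the 6 B10-strain libraries. The log2 difference was -0.29 (SE 0.10, 95% interval -0.49 to -0.09), a fold of 0.819, with an adjusted p of 0.0243 by edgeR's quasi-likelihood test with Benjamini-Hochberg adjustment over 15352 genes. An exact permutation test of the CPM values within each transgene state gave a two-sided p of 0.02 (400 assignments, smallest possible 0.005). Differences between these strains were common: 33.3% of the genes tested passed the same threshold, 15.7% higher and 17.6% lower in NOD. In size the Glis3 difference was ordinary, since 56.6% of genes had a smaller absolute log2 difference. The split between higher and lower genes moved with the scaling, from 2406 higher and 2701 lower with TMM to 3100 and 2145 with upper quartile scaling and 1638 and 3297 when libraries were scaled to the other beta cell factors. Glis3 was lower in NOD under each of these scalings, with log2 differences of -0.29, -0.23 (adjusted p = 0.0653) and -0.37 (adjusted p = 0.0109).

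Neither strain comparison passed on its own. In islets without the transgene the log2 difference was -0.26 (SE 0.13, 95% interval -0.53 to 0.02, adjusted p = 0.155 by edgeR), where 28.4% of genes passed. The 3 NOD and 3 B10 values did not overlap, and 23.8% of all genes lay wholly lower in NOD in the same way. The exact permutation p was 0.10, the smallest that 3 against 3 allows. In transgenic islets the log2 difference was -0.32 (SE 0.14, 95% interval -0.60 to -0.04, adjusted p = 0.139 by edgeR), where 12.1% of genes passed, and the exact permutation p was 0.20 with overlapping groups.

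The transgene was not associated with a detectable change of Glis3 in either strain. B10_insHEL stood 0.18 above B10 on the log2 scale (SE 0.13, 95% interval -0.09 to 0.46, adjusted p = 0.453 by edgeR). NOD_insHEL stood 0.12 above NOD (SE 0.14, 95% interval -0.17 to 0.40, adjusted p = 0.652 by edgeR). Exact permutation tests gave p = 0.30 and p = 0.70. In these comparisons 6.85% and 7.06% of genes passed. The transgene difference in NOD minus that in B10 was -0.06 (SE 0.19, 95% interval -0.46 to 0.33, adjusted p = 0.924 by edgeR), and 0.0586% of genes, 9 in number, passed this test. The intervals of this fit leave room for transgene effects on Glis3 of up to 1.37-fold in B10 and 1.32-fold in NOD. With the acinar score as a covariate the log2 difference in B10 was larger, at 0.40 (SE 0.18, adjusted p = 0.333 by edgeR).

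Other properties of the libraries moved with the strain difference in Glis3. The acinar score was high in all 3 B10 libraries and in B10_insHEL replicate 2, the library with the most Glis3. All 11 acinar genes tested were lower in NOD in the averaged comparison by edgeR, where 17.6% of all genes were. In transgenic islets alone 0 of the 11 passed by edgeR, where 12.1% of all genes did. Their median log2 difference there was still -3.89 (range -4.53 to -0.58), and 7 of the 11 had an unadjusted p under 0.05 by edgeR. With the acinar score as a covariate the averaged Glis3 difference was -0.12 (SE 0.13, adjusted p = 0.584 by edgeR). With the 4 high-scoring libraries left out, an alternative chosen after seeing the data, only the transgenic comparison could be made between strains, and its log2 difference was -0.19 (adjusted p = 0.512 by edgeR). The labels also give each sample a number, of 3 digits in B10 and from 1 to 29 in all other groups. If those numbers mark a separate collection, it holds only B10 libraries and cannot be told apart from that group.

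The balance between long and short transcripts differed between libraries too. An exon length contrast was formed as the mean log2 CPM of the quartile of protein-coding genes with the longest exons minus that of the shortest, and it ran from 1.53 to 1.70 in B10, 1.43 to 1.64 in B10_insHEL, 1.26 to 1.41 in NOD and 1.40 to 1.51 in NOD_insHEL. B10 and NOD did not overlap. The median strain difference over genes fell with length, from 0.12 in the shortest quartile through 0.04 and -0.03 to -0.09 in the longest, the quartile to which Glis3 belongs. With the contrast as a covariate, also chosen after seeing the data, the averaged Glis3 difference was 0.012 (SE 0.11, adjusted p = 0.967 by edgeR). The part of either property in the Glis3 difference cannot be told apart from strain where the groups do not overlap.

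Single libraries also decided whether Glis3 passed. Leaving out B10_insHEL replicate 2 gave -0.22 (adjusted p = 0.0669), leaving out NOD replicate 3 gave -0.25 (adjusted p = 0.0701), and leaving out NOD_insHEL replicate 3 gave -0.23 (adjusted p = 0.0612), all by edgeR. With every library thinned to 2212062 reads, in a single random draw, the averaged difference was -0.19 (adjusted p = 0.195 by edgeR). Glis3 stayed lower in NOD with each of the 12 libraries left out in turn, between -0.36 and -0.22.

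**Figure D2:**
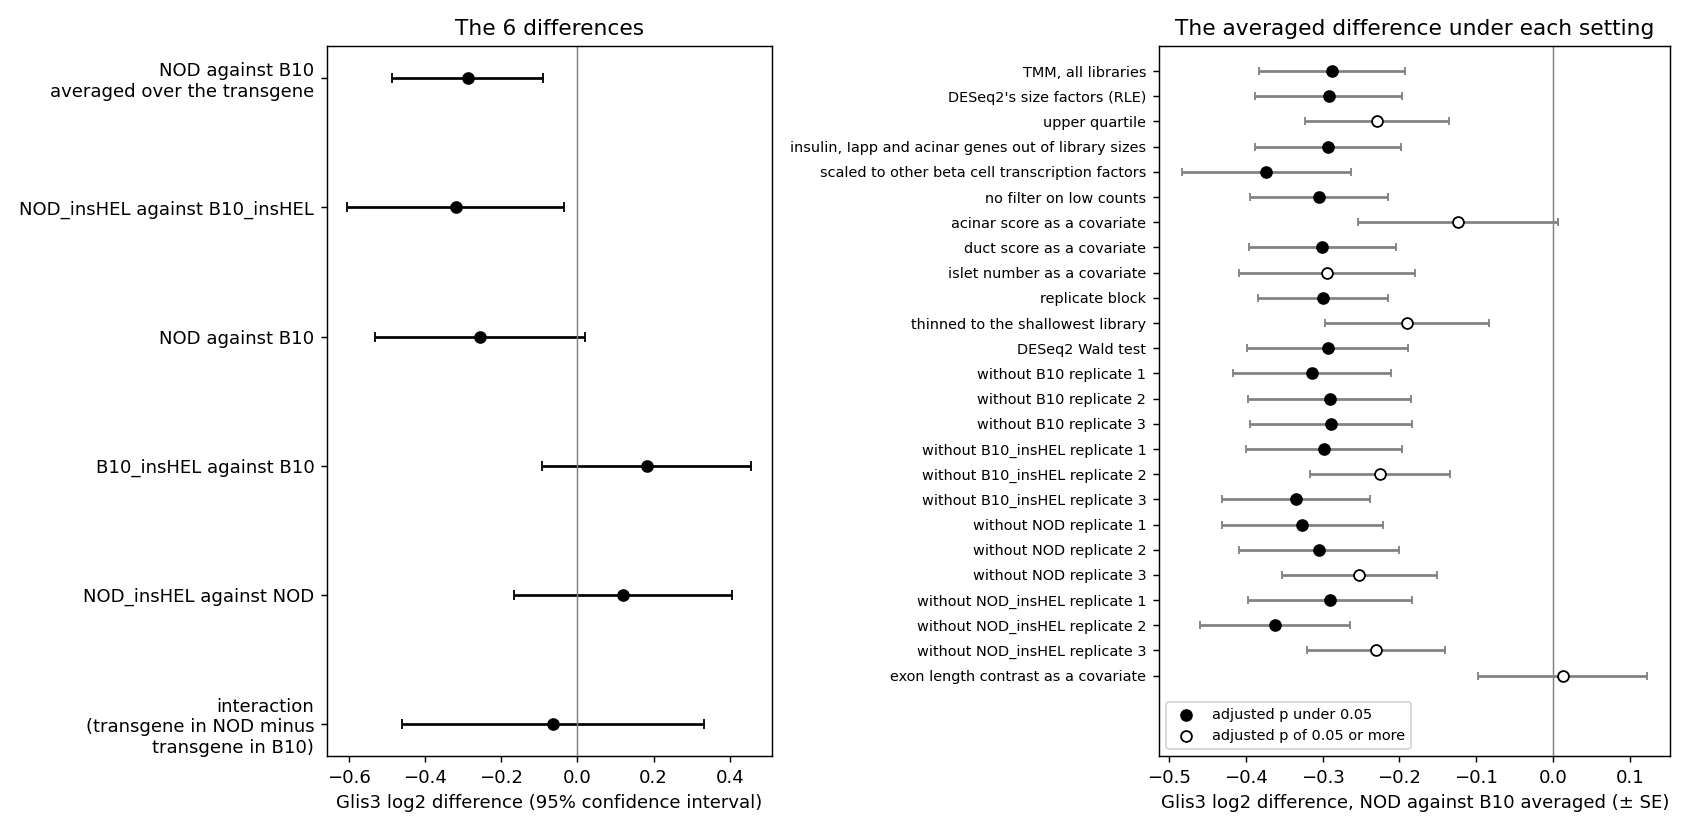
Left, the 6 log2 differences of Glis3 with 95% confidence intervals; right, the averaged strain difference (± SE) under each setting, filled where the adjusted p is under 0.05. The averaged difference lies below 0 in each setting except with the exon length contrast as a covariate, a setting added after seeing the data, where it is 0.012.

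The other beta cell transcription factors were tested in the same comparisons. Of 25 listed, 22 were tested, 6 rose and 1 fell in NOD in the averaged comparison, and 15 did not pass. The 7 of 22 that passed are near the share of all genes that did (33.3%, with 15.7% higher and 17.6% lower). Their median log2 difference was 0.05, beside 0.01 for all genes. Myt1, a zinc finger factor of endocrine cells, stood at 72.8, 73.0 and 70.7 CPM in B10 and at 108, 101.4 and 109 CPM in NOD. In transgenic islets it stood at 66.2 to 72.8 CPM in B10_insHEL and 89.7 to 119 CPM in NOD_insHEL. Its averaged log2 difference was 0.52 (SE 0.08, adjusted p = 2.73e-05 by edgeR). Ldb1, an adaptor that joins ISL1 to other factors, differed by 0.33 (adjusted p = 0.00391), and Tshz1, a factor of beta cell maturation, by 0.31 (adjusted p = 0.00478), both by edgeR. In transgenic islets alone these were 0.21 (adjusted p = 0.265) and 0.31 (adjusted p = 0.082) and did not pass by edgeR. Rfx6, needed for islet development, was the factor that fell, by 0.30 on the log2 scale. Pdx1 was at 256 CPM in B10 and 232 CPM in NOD on average, with an averaged log2 difference of -0.01 (95% interval -0.19 to 0.16). With the acinar score as a covariate 2 of the 22 factors passed, beside 14.3% of all genes under the same covariate.

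Reported targets of GLIS3 were split in direction. All 13 listed were tested, 5 were higher and 3 lower in NOD in the averaged comparison, and 5 did not pass, where 33.3% of all genes passed (15.7% higher, 17.6% lower). The 8 that passed became 3 to 5 without any of 10 single libraries, all but B10 replicate 3 and B10_insHEL replicate 3. Their median was 0.09, beside 0.01 for all genes. Ins1 stood at 42977, 44643 and 43982 CPM in B10 and at 74955, 75217 and 71159 CPM in NOD. In B10_insHEL it stood at 75635, 46881 and 68705 CPM and in NOD_insHEL at 76137, 76142 and 83179 CPM. B10 and B10_insHEL replicate 2, the 4 libraries with high acinar scores, held the 4 lowest Ins1 values, while the latter held the highest Glis3. The averaged difference of Ins1 was 0.53 (SE 0.10, adjusted p = 0.000445 by edgeR). It was made up of 0.75 without the transgene (adjusted p = 0.000627) and 0.30 with it (adjusted p = 0.186), by edgeR. The transgene difference of Ins1 was 0.54 in B10 (adjusted p = 0.0264) and 0.09 in NOD (adjusted p = 0.757), by edgeR.

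Ins2, the insulin gene shared with other mammals, followed the same order. It stood at 105519 to 125480 CPM in B10 and 153650 to 164972 CPM in NOD. Its averaged difference was 0.34 (SE 0.10, adjusted p = 0.00867 by edgeR). It was made up of 0.465 without the transgene (adjusted p = 0.0136) and 0.22 with it (adjusted p = 0.322), by edgeR. Mafa, an insulin gene activator of mature beta cells, ranged from 23.7 CPM in B10_insHEL replicate 2 to 139 CPM in NOD replicate 2. Its averaged difference was 0.86 (SE 0.26, adjusted p = 0.0307 by edgeR). The parts were 0.56 without the transgene (adjusted p = 0.274) and 1.16 with it (adjusted p = 0.0816), and neither passed by edgeR. Slc2a2, the glucose transporter GLUT2, stood at 721, 679 and 841 CPM in B10 and at 751, 801 and 788 CPM in NOD. It stood at 550, 298 and 417 CPM in B10_insHEL and at 870, 877 and 830 CPM in NOD_insHEL. Its log2 strain difference was 1.03 in transgenic islets (adjusted p = 0.00015 by edgeR) and 0.06 in islets without the transgene (adjusted p = 0.796). The transgene difference of Slc2a2 was -0.83 in B10 (adjusted p = 0.00366) and 0.14 in NOD (adjusted p = 0.638), by edgeR. The transgene difference between strains for Slc2a2 was 0.97 and did not pass (adjusted p = 0.132 by edgeR). With the acinar score as a covariate, 0 of the 13 targets passed in the averaged comparison by edgeR, beside 14.3% of all genes, and 1 had an unadjusted p under 0.05.

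Ccnd2, cyclin D2, a cell cycle gene through which GLIS3 is reported to act on beta cell proliferation, was lower in NOD in the averaged comparison. It stood at 1034, 1107 and 983 CPM in B10 and at 730, 869 and 746 CPM in NOD. These did not overlap, where 23.8% of all genes lay wholly lower in NOD in the same way. It stood at 1182, 1094 and 1023 CPM in B10_insHEL and 1096, 1183 and 962 CPM in NOD_insHEL, with overlap. Its averaged log2 difference was -0.22 (SE 0.08, adjusted p = 0.0376 by edgeR). It was made up of -0.41 without the transgene (adjusted p = 0.00899) and -0.02 with it (adjusted p = 0.92), by edgeR. Glis3 differed by -0.26 and -0.32 in these comparisons. In NOD the transgene difference of Ccnd2 was 0.47 (adjusted p = 0.0173 by edgeR). The islet zinc transporter gene Slc30a8 and the glucose-6-phosphatase gene G6pc2 were the other reported targets that fell, by 0.22 and 0.28 on the log2 scale.

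Manf, which encodes a secreted endoplasmic reticulum stress factor, changed with the transgene and not detectably with strain. It stood at 266, 344 and 278 CPM in B10 and at 557, 541 and 853 CPM in B10_insHEL. In NOD it stood at 363, 358 and 428 CPM and in NOD_insHEL at 629, 530 and 542 CPM. Its log2 transgene differences were 1.14 in B10 (adjusted p = 0.000407) and 0.57 in NOD (adjusted p = 0.034) by edgeR, where 6.85% and 7.06% of genes passed. Its averaged strain difference was 0.09 (adjusted p = 0.575 by edgeR). It was made up of opposite parts, 0.37 without the transgene (adjusted p = 0.0788) and -0.20 with it (adjusted p = 0.456), and neither passed by edgeR.

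Proteins that act with GLIS3 were listed as partners. Of 9 listed, 8 were tested, 3 were higher and 1 lower in NOD in the averaged comparison, where 33.3% of all genes passed (15.7% higher, 17.6% lower), and the 4 that passed became 2 without NOD_insHEL replicate 3. Their median was 0.03, beside 0.01 for all genes. Wwtr1, which encodes the coactivator TAZ, stood at 23.5, 18.2 and 22.4 CPM in B10 and at 27.6, 41.9 and 39.5 CPM in NOD, and at 21.6, 27.1 and 27.2 CPM in B10_insHEL and 26.9, 38.1 and 34.7 CPM in NOD_insHEL. Its averaged difference was 0.57 (SE 0.12, adjusted p = 0.00108 by edgeR), with 0.76 without the transgene (adjusted p = 0.00188) and 0.38 with it (adjusted p = 0.174). Itch, a ubiquitin ligase that promotes degradation of GLIS3, stood at 92.5, 113 and 106 CPM in B10 and at 77.7, 73.8 and 64.9 CPM in NOD. These did not overlap, where 23.8% of all genes lay wholly lower in NOD in the same way. In B10_insHEL it stood at 89.4, 121 and 93.3 CPM and in NOD_insHEL at 94.7, 93.5 and 86.9 CPM, with overlap. It was lower in NOD by the averaged test, with a log2 difference of -0.33 (SE 0.09, adjusted p = 0.00584 by edgeR), made up of -0.52 without the transgene (adjusted p = 0.00324) and -0.14 with it (adjusted p = 0.526). Neurod1 differed by 0.26 (adjusted p = 0.0176 by edgeR) and Mafa as given above.

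Among relatives of Glis3 in the GLI and ZIC family, little was expressed. Of 11 listed, 10 were matched in the table and 4 passed the filter. Zic1 and Zic2 had 0 reads in all libraries, and Gli3 had 85 reads over the 12. Glis2 was the only relative near the level of Glis3, at 5.17 RPKM beside 7.51, and its averaged log2 difference was -0.03 (95% interval -0.24 to 0.18, adjusted p = 0.842 by edgeR). Glis1, at 0.280 RPKM, differed by 0.53 (SE 0.41, adjusted p = 0.34). The Hedgehog pathway effectors Gli1 and Gli2 had 116 and 74 reads in all. Gli2 was higher in NOD by 1.70 (SE 0.53, adjusted p = 0.0169 by edgeR) from at most 12 reads a library, and Gli1 differed by 1.01 (adjusted p = 0.094).

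Genes within 1 Mb of Glis3 on chromosome 19 were tested in the same way. Of 28 in the table, 15 were tested, and 1 was higher and 3 were lower in NOD in the averaged comparison, which is near the share of all genes (33.3%, with 15.7% higher and 17.6% lower). Their median was -0.09, beside 0.01 for all genes. Ak3, a mitochondrial adenylate kinase gene (29020833 to 29047961), stood at 54.0, 51.7 and 58.4 CPM in B10, 67.7, 63.7 and 67.9 in B10_insHEL, 41.0, 41.7 and 43.1 in NOD and 51.4, 52.6 and 40.8 in NOD_insHEL. It was lower in NOD with the transgene (-0.44, adjusted p = 0.0118) and without it (-0.38, adjusted p = 0.0113), both by edgeR. Its averaged log2 difference was -0.41 (SE 0.08, adjusted p = 0.000369 by edgeR). Cdc37l1, a cochaperone gene (28990352 to 29026681, which overlaps Ak3), differed by -0.29 (adjusted p = 0.0068). The cytokine receptor kinase gene Jak2 (29251828 to 29313080) differed by -0.28 (adjusted p = 0.0486), and Plgrkt (29348599 to 29367390), a plasminogen receptor gene, was higher by 0.44 (adjusted p = 0.00206), all by edgeR. In transgenic islets alone these 3 differences were -0.12, -0.12 and 0.31 and did not pass (adjusted p = 0.549, 0.675 and 0.18 by edgeR).

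To relate Glis3 to other genes without the group differences, each library's log2 CPM was expressed as a deviation from its group mean. Glis3 deviations ran from -0.32 in NOD_insHEL replicate 3 to 0.28 in NOD_insHEL replicate 2. Over the 12 libraries no correlation of 15351 genes with Glis3 passed adjustment: 0 genes had an adjusted p under 0.05 by the exact within-group permutation test (smallest adjusted p 0.204 for Pearson's r and 0.219 for Spearman's rho), while 1700 genes, 11.1%, had an unadjusted p under 0.05. This exact permutation test allows no p below 0.000772, so no gene could pass adjustment over 15351 genes on its own, however high its r. The lack of a passing gene therefore does not decide whether any gene runs with Glis3, and the values that follow are descriptions.

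Correlations of beta cell genes with Glis3 fell on either side of 0. Of 52 tested genes of beta cell transcription and function, 27 had r above 0 (51.9%, beside 51.4% of all genes), and their median r was 0.03, beside 0.02. The highest were Kcnj11, the pore subunit of the potassium channel that couples glucose to insulin release (r = 0.80), the granin gene Scg2 (r = 0.71) and the factor gene St18 (r = 0.70). The lowest were Ins2 (r = -0.81), Gipr, the receptor for the incretin GIP (r = -0.66), and the granin gene Chga (r = -0.66). St18, the potassium channel subunit gene Abcc8 and Ins2 were the 3 of 52 with an unadjusted exact permutation p under 0.05. Of all genes 11.1% were under it, so beta cell genes were not more often so than others. Ins2 deviated from its group by -0.28 in B10_insHEL replicate 2, where Glis3 deviated by 0.22, and by 0.15 in NOD_insHEL replicate 3, where Glis3 deviated by -0.32.

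For Ins2, Spearman's rho was -0.80, and the exact permutation p was 0.00309 for r and 0.00926 for rho. The adjusted values were 0.263 and 0.323, in a test where no gene could pass on its own. Its r was -0.90 within the 6 B10-strain libraries, -0.96 within the 6 NOD-strain libraries, and -0.76 without NOD_insHEL replicate 3 and B10_insHEL replicate 3, the 2 libraries farthest from the median Glis3 deviation. When only strain means were removed r was -0.35, and when libraries were scaled to the other beta cell factors it was -0.51. For Kcnj11, rho was 0.61, the exact permutation p was 0.0648 for r and 0.134 for rho, with adjusted values of 0.476 and 0.606, and r without the same 2 libraries was 0.51. Pdx1 (r = 0.05), Ins1 (r = -0.50) and Mafa (r = -0.37) had no unadjusted exact permutation p under 0.05.

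The genes whose pattern was most like that of Glis3, by r among 9172 named protein-coding genes of at least 10 CPM, were Tcp11l1 (0.98), Fam168b (0.98), Tacc1 (0.96), Zfp174 (0.96) and Arrdc3 (0.96). The least like were Ubxn6 (-0.97), the small membrane protein gene Inafm1 (-0.97), the succinate dehydrogenase subunit gene Sdhb (-0.96), the mitochondrial ribosomal gene Mrpl54 (-0.96) and the ATP synthase subunit gene Atp5o (-0.95). Spearman's rho ran from 0.89 to 0.99 for the first 5 and from -0.98 to -0.84 for the last 5, and r without the 2 libraries farthest from the median Glis3 deviation kept its sign, between 0.92 and 0.97 and between -0.96 and -0.95. When only strain means were removed, r fell to 0.48 for Tcp11l1 and 0.39 for Fam168b. Exons of the first 5 add up to between 5219 and 11920 bases, and those of the last 5 to between 825 and 5685. Exon length ran with likeness over all genes, as the median r with Glis3 was -0.19, -0.05, 0.09 and 0.27 from the shortest to the longest quartile. The exon length contrast itself had r = 0.82 with Glis3 over the deviations of the 12 libraries. These correlations share libraries, depth and scaling, and the part of transcript length in them was not tested.

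**Figure D3:**
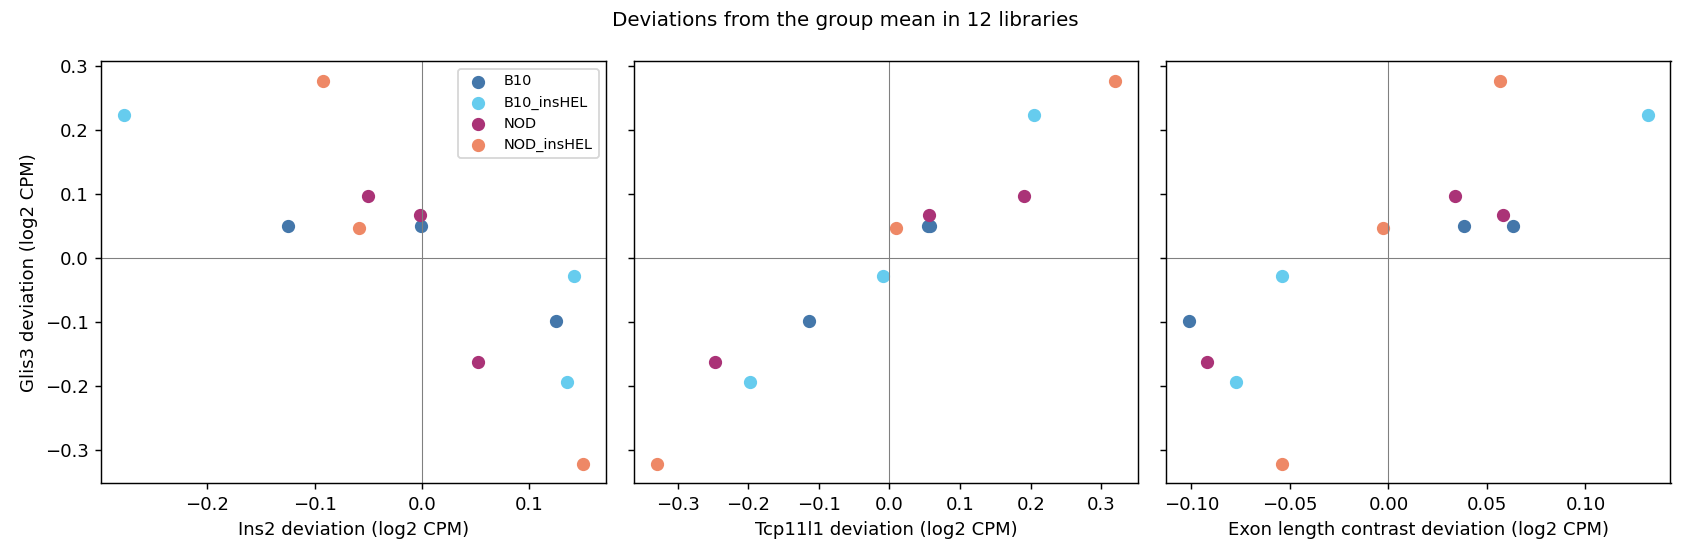
Deviation of Glis3 from its group mean (y axis, log2 CPM) against that of Ins2 (left), Tcp11l1 (middle) and the exon length contrast (right) in 12 libraries coloured by group. The points fall with Ins2 (r = -0.81) and rise with Tcp11l1 (r = 0.98) and with the length contrast (r = 0.82).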

How the data were processed

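Per the submitters' processing notes, the authors used cutadapt, TopHat2 (2.0.8b), HTSeq and DESeq with GRCm38; the annotation release and strand setting are not given in the sources used here. The deposited table holds raw read counts per Ensembl gene. Per the labels' protocols, islets were isolated with collagenase in the presence of α-amanitin and actinomycin D, which stop transcription, purified on a dextran gradient and picked, and messenger RNA was sequenced with a strand-specific kit. GRCm38 is built from C57BL/6J; whether NOD reads mapped less well was not tested.

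Symbols and exon lengths came from GENCODE vM21, which matched 36639 identifiers (95.0%) holding 99.8% of counts. Genes passing edgeR's filterByExpr (15352) were TMM-scaled and fitted with 4 group means over all 12 libraries by edgeR (4.0.16; R 4.3.3) quasi-likelihood with robust dispersion; adjusted p under 0.05 counted as passing. Log2 CPM used a prior count of 2. Depth was 2212062 to 21138456 counts a library, which set a counting error for Glis3 of 2.52% to 9.85%. Replicates differed by more than sampling noise. Permutation and correlation tests were two-sided and exact (scipy and numpy). The fit and the correlation step were tested on simulated data.

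Glis3 is named throughout; from each list, the 4 genes of smallest averaged adjusted p, 8 further genes (Ins1, Ins2, Mafa, Pdx1, Ccnd2, Manf, Glis1, Glis2), and the genes of highest and lowest r. Other genes in the text (Rfx6, Slc30a8, G6pc2, Nkx6-1, Hnf4a, Neurog3, Gli3, Zic1 and Zic2) complete a count or an order and were chosen after their values were seen. Some genes of the lists are not reported here by name. The gene and the lists were chosen with earlier results of these data known. Alternatives were other scalings and filters, DESeq2 (1.42.0), covariates, thinning, a replicate block and leaving out each library.

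Marker lists were counted in the averaged strain comparison by edgeR, where 33.3% of all genes passed, 15.7% higher and 17.6% lower in NOD. Higher in NOD were 3 of 3 delta cell, 5 of 6 endothelial, 2 of 7 duct and 2 of 5 stellate and fibroblast genes tested. Lower were 11 of 11 acinar, 1 of 7 alpha cell, 1 of 7 duct and 1 of 6 endothelial genes. By DESeq2 7 of 12 acinar genes passed. By edgeR 0 of 11 acinar genes did in transgenic islets alone, where 12.1% of all genes passed. The acinar median log2 difference there was -3.89, and 7 of the 11 had an unadjusted p under 0.05 by edgeR. Of 7 beta cell markers 4 were higher and 2 lower. Of 5 macrophage genes and 1 pancreatic polypeptide cell gene 0 passed by edgeR or DESeq2 (2 and 0 at an unadjusted p under 0.05 by edgeR), and 0 of 5 lymphocyte genes entered the test.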

Additional observations from a re-analysis of the deposited data

How the results depend on the processing

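The direction of the averaged strain difference of Glis3 was kept in 11 of 12 alternatives beside those leaving out a library, and 7 of the 12 passed the threshold. It did not pass with upper quartile scaling (-0.23), the acinar score as a covariate (-0.12), the islet number as a covariate (-0.29, adjusted p = 0.0665 by edgeR) or thinning to the shallowest library (-0.19), and it was 0.012 with the exon length contrast as a covariate, chosen after seeing the data. With that covariate the difference without the transgene was 0.25 and the transgene difference in NOD -0.085. The latter was -0.073 after thinning, which was a single random draw. The interaction was 0.023 with the duct score as a covariate and -0.48 with the length contrast. The transgene difference in B10 was 0.39 with the length contrast (adjusted p = 0.0712 by edgeR) and 0.40 with the acinar score (adjusted p = 0.333 by edgeR). None of these passed by edgeR, and the causes were not tested.

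Leaving out each library in turn gave -0.36 to -0.22 for the averaged difference (adjusted p up to 0.0701), -0.47 to -0.19 with the transgene, -0.33 to -0.18 without it, 0.06 to 0.27 for the transgene in B10, -0.026 to 0.24 for the transgene in NOD and -0.21 to 0.063 for the interaction. The permuted mean difference ran from -17.0 to -10.7 CPM, with exact permutation p up to 0.05, reached without NOD_insHEL replicate 3.

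With the acinar score as a covariate 14.3% of all genes passed in the averaged comparison, beside 33.3% without it. List members passing with it were 2 of 22 beta cell factors and 11 of 30 beta cell function genes (20 of 30 without it). They also were 0 of 13 reported targets, 1 of 8 partners, 2 of 4 GLI family genes and 2 of 15 neighbours. Leaving out each library gave 6 to 8, 18 to 20, 3 to 7, 2 to 5, 1 to 2 and 3 to 4 in the same order, while 27.6% to 33.4% of all genes passed. The 8 reported targets fell to 5 or fewer without any of 10 libraries (all but B10 replicate 3 and B10_insHEL replicate 3) and to 3 without B10 replicate 2, NOD_insHEL replicate 1 or NOD_insHEL replicate 3. The partners fell to 2 without NOD_insHEL replicate 3, and the GLI family count rose to 2 without B10 replicate 1 or B10_insHEL replicate 2.

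Of all genes, 5107 passed in the averaged comparison, against 2198 with the acinar score, 1589 with the length contrast and 3324 after thinning. Without the transgene 4353 passed, against 1254, 511 and 2591 with these settings and 2688 with the islet number. With the transgene 1850 passed, against 1218 after thinning and 1197 when only the 2 groups were fitted. For the transgene in B10 1052 passed, against 160 to 1472 over the alternatives, and for the transgene in NOD 1084, against 2 to 1452, the lowest with the duct score in both. The 9 interaction genes became 2 to 161. Without NOD replicate 3, 2868 passed in islets without the transgene. Leaving out each library gave 428 (without B10 replicate 3) to 1566 for the transgene in B10, 107 (without NOD_insHEL replicate 1) to 1522 in NOD and 2 to 162 (without B10_insHEL replicate 2) for the interaction.

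The replicate numbers did not pair the libraries: 2 of 18 same-numbered pairs had a correlation of deviations over 0.1 (range -0.16 to 0.11), and 1 of 12 libraries correlated best with its own number. With the replicate block the averaged difference was -0.30 (adjusted p = 0.0100 by edgeR), the other differences of Glis3 kept their direction and their side of the threshold, and 5023 genes passed.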
